A study of Mus musculus with 8 samples.

Results

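A set of 8 centrosome, spindle and kinetochore genes was followed in mature mouse oocytes, as 8 of the 417 gene names in a deposited expression table. They were grouped by what their proteins do, with earlier results of these data known, so their number, directions and sizes of change are a description. Cep192, Cep57, Cep57l1, Ccdc14 and Rttn belong to the centrosome or centriole, Haus6 and Eml4 act on microtubules, and Spc25 is a kinetochore protein. The libraries came from metaphase II (M2) oocytes of females of about 6 months. The control group holds 4 libraries with genotype WT that are titled L/L (Ctrl), and the other group holds 4 libraries with genotype KO that are titled L/L cre (KO). Both groups carry L/L. The labels name neither the gene that L/L marks nor the promoter that drives cre, a recombinase that removes marked DNA, so loss of the target was not checked here. The design text asks how the oocyte transcriptome differs when reactive oxygen species rise in the mitochondrial matrix. Oocytes were merged before lysis, so a change in every oocyte and a change in some of them cannot be told apart. The values are scaled to the same total in each library, so they do not show how much RNA an oocyte held.

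As background, the spindle of a mouse oocyte forms without centrioles. Many small organizing centres of pericentriolar material cluster into its poles, new microtubules branch from existing ones through the augmin complex, and the Ndc80 complex holds microtubule ends at the kinetochores. Oocytes at metaphase II make little new RNA, and the messenger RNA they hold was mostly made during growth of the oocyte.

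Expression was given in TPM, a length-corrected abundance of a transcript in which each library is scaled to the same total. The table holds 469 rows, and in each of them the group means differ at least 2.04-fold, so it is a list already picked for a difference between KO and Ctrl. The rule of that choice is not given in the sources used here. Of 402 genes that reached a mean of 1 TPM, 57.2% passed as lower and 36.6% as higher in KO at a limma adjusted p of 0.05, so a call on any member is no independent evidence of a difference. All 8 members passed the filter on low values, and each has 1 row. Cep57l1 reached that mean through KO alone (0.0146 TPM on average in Ctrl), and Cep192 and Spc25 through Ctrl alone (0.786 and 0.404 TPM on average in KO). These 3 could pass the filter only by differing, so their adjusted p-values lend no support to a difference. Each row is read here as 1 transcript, although the genes have 4 to 12 annotated transcripts each in GENCODE M21, and the table does not say which. Other transcripts of these genes were not analysed here. The listed rows add up to between 32000 and 42538 TPM in Ctrl and between 12869 and 19916 TPM in KO, and sequencing depth is unknown. Among the 248 tested genes that were lower in KO, Ctrl library 4 held the highest Ctrl value in 141 and Ctrl library 2 in 79, and KO library 2 held the lowest KO value in 118. The summed TPM of the mitochondrially encoded genes moved with the groups, from 22750 to 29002 TPM over the Ctrl libraries to 5157 TPM in KO library 2 and 9827 to 14088 TPM in the remaining KO libraries. Its part in the members' values was not tested. Of 25 oocyte marker names, aliases included, 3 had a row (Nlrp9b, Nlrp4f and Eif4e1b), and each was above 9 TPM in all 8 libraries. Nlrp9b and Eif4e1b were themselves lower in KO with no overlap, by -1.06 and -1.38 on the log2 scale (adjusted p by limma = 0.0144 for both), and Nlrp4f differed by -0.44 (0.323). None of 17 cumulus and granulosa markers had a row, so the part of such cells was not tested.

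All 8 members passed the test, 6 as lower and 2 as higher in KO, next to 93.8% of all tested genes in either direction. Rttn, Cep192, Haus6, Cep57, Spc25 and Eml4 fell, and Cep57l1 and Ccdc14 rose. Their log2 fold changes ran from -2.80 for Rttn to 3.30 for Ccdc14, with a median of -1.35, against -1.05 over all tested genes. The median size of the change, without its sign, was 2.05 for the members and 1.34 for all tested genes. In 4 members every KO library lay below every Ctrl library, a pattern shown by 36.3% of tested genes, and in 2 every KO library lay above, a pattern shown by 20.1%. Cep192 and Eml4 overlapped between the groups. The labels do not say that libraries came from separate animals, so p-values measure the spread between these libraries, which may be technical.

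**Figure D1:**
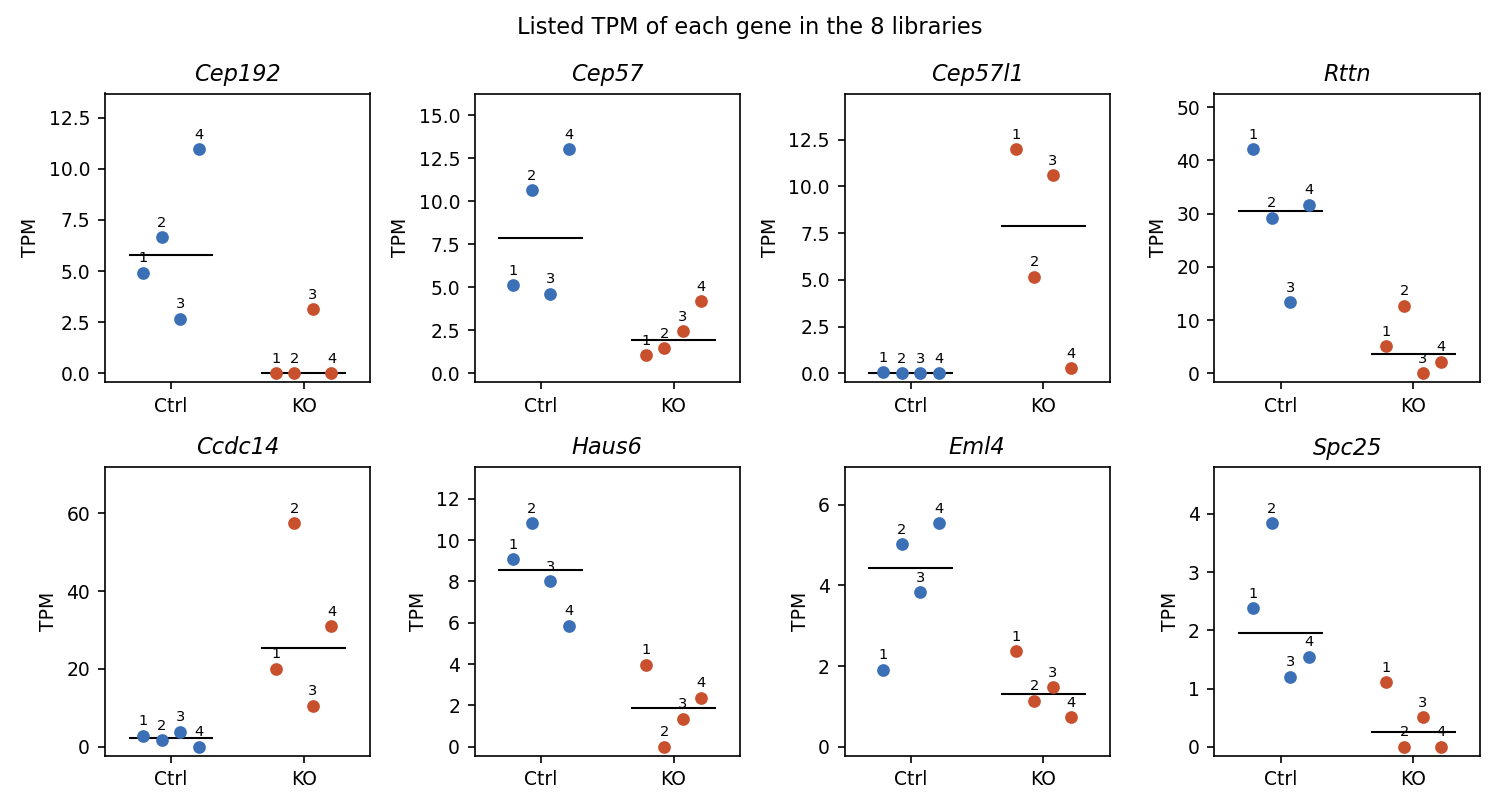
TPM (vertical axis, linear, a separate scale per gene) of the 8 genes in the 4 Ctrl and 4 KO libraries; each point is a library marked with its replicate number, and horizontal lines are group medians. Cep57l1 and Ccdc14 are higher in KO, the other 6 genes are lower, and Cep192 in KO library 3 (3.15 TPM) lies above Ctrl library 3 (2.66 TPM).

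Cep192 is the scaffold that gathers pericentriolar material and spindle pole kinases, and its gene lies on chromosome 18 (67800107 to 67885170, plus strand, GRCm38). The Ctrl libraries held 4.92, 6.65, 2.66 and 11.0 TPM in the order of their replicate numbers. In KO, libraries 2 and 4 were listed at 0, library 1 at 4.23e-05 TPM and library 3 at 3.15 TPM. KO was therefore close to 0 in 3 libraries, while the remaining library lay inside the Ctrl range. The log2 fold change was -2.22 ± 0.56 (SE, 4 libraries a group, adjusted p by limma = 0.0091). It was -2.74 without KO library 3, and the call held in all 8 fits that left out a single library. An exact two-sided permutation test of the same difference gave p = 0.0571, where 0.0286 is the smallest that 4 against 4 libraries allow. Cep192 reached the filter through Ctrl alone, so its limma calls lend no support to a difference.

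Cep57 and Cep57l1 are paralogues, and they moved in opposite directions. Cep57 encodes a protein of the pericentriolar material that in human cells helps to keep it in order, and loss of the human gene causes mosaic variegated aneuploidy. Its gene lies on chromosome 9 (13807792 to 13827107, minus strand). Cep57 was at 5.13, 10.6, 4.62 and 13.0 TPM in Ctrl libraries 1 to 4 and at 1.04, 1.45, 2.44 and 4.18 TPM in KO libraries 1 to 4. The highest KO library thus lay just under the lowest Ctrl library. Group means were 8.35 ± 4.13 TPM in Ctrl and 2.28 ± 1.40 TPM in KO (SD, n = 4 each), a 3.66-fold difference, and on the log2 scale the change was -1.49 ± 0.51 (SE, adjusted p by limma = 0.0208). Array weights ended the call (-0.997, adjusted p by limma = 0.0582). It was also lost without Ctrl library 2 (adjusted p by limma = 0.0585) or Ctrl library 4 (0.0535), the pair of Ctrl libraries in which Cep57 was highest.

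Cep57l1 encodes a protein that in human cells holds the mother and daughter centriole together during interphase (chromosome 10, 41718840 to 41809871, minus strand). It was listed at 0 in Ctrl libraries 2 and 4, at 0.0545 TPM in library 1 and at 0.00384 TPM in library 3. In KO it reached 12.0, 5.17 and 10.6 TPM in libraries 1, 2 and 3 but only 0.267 TPM in library 4. The groups did not overlap, yet KO library 4 stood far nearer to Ctrl than to the other KO libraries. The log2 fold change was 2.53 ± 0.60 (SE, adjusted p by limma = 0.00682) with all libraries and 3.27 without KO library 4. Cep57l1 reached the filter through KO alone, so its adjusted p-value lends no support to a difference. Cep57l1 made up 0%, 0%, 0.0831% and 1.05% of the summed TPM of the 2 listed paralogue rows in the 4 Ctrl libraries. In KO its share was 92.0%, 78.0% and 81.3% in libraries 1 to 3 and 6.00% in library 4. No stretch of 200 bp at 95% identity joins the protein-coding transcripts of Cep57 and Cep57l1, or those of any other member, to the transcripts of another gene. Other transcripts of the members were not searched. An antisense gene, BC048559, shares 67 of 5851 exonic bases with Cep57l1, and reads from those bases cannot be assigned where strand was not recorded.

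The 250 bases before the annotated start are shown for this opposite pair and for Haus6 and Spc25, which fell with Cep57. RefSeq windows (GRCm38.p6) were examined for 5 of the 8 genes: Cep57, Cep57l1, Haus6, Eml4 and Spc25. Those of Cep192, Rttn and Ccdc14 were not examined, so the motif results do not cover these genes. Each window shown is written 5′ to 3′ on the strand of the gene, and capitals mark motif matches on either strand.
Cep57 (chr9:13827108-13827357, minus strand): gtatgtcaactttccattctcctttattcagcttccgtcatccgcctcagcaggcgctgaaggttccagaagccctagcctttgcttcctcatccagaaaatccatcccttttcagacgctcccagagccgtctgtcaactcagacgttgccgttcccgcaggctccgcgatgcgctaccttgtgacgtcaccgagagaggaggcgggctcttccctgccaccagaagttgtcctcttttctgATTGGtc
Cep57l1 (chr10:41809869-41810118, minus strand): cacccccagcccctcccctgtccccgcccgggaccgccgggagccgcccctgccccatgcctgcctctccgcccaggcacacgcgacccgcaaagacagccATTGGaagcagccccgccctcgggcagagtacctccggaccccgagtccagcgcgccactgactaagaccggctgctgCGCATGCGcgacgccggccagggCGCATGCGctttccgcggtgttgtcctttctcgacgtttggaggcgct
Haus6 (chr4:86612056-86612305, minus strand): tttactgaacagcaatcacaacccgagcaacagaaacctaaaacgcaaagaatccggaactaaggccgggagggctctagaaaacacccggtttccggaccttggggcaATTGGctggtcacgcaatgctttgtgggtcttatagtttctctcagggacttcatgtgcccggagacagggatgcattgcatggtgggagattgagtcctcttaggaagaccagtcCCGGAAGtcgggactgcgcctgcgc
Spc25 (chr2:69206214-69206463, minus strand): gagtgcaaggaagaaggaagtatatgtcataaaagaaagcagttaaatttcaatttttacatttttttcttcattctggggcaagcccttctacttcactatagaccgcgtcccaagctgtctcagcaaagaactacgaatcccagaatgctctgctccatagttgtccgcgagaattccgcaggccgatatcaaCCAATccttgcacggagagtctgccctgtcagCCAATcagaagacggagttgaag
The motifs searched on both strands were the CHR element TTTGAA, the CCAAT box CCAAT, the E2F sites TTTCCCGC and TTTGGCGC, the ETS site CCGGAAG, the NRF1 core CGCATGCG and the TATA box TATAAA. All 5 windows held a CCAAT box, which 34.5% of 27025 promoter windows of the same length hold. Cep57l1 carried the NRF1 core at 2 places, 71 to 64 and 48 to 41 bases before the start, and 1.58% of all windows hold at least 1. Haus6 carried the ETS site 25 to 19 bases before the start, against 7.07% of all windows. Spc25 held CCAAT at 2 places, 55 to 51 and 23 to 19 bases before the RefSeq start. No GENCODE M21 transcript of Spc25 begins at that start. The remaining motifs did not occur in the 5 windows. Guanine and cytosine made up 72.0% of the Cep57l1 window and 70.4% of that of Eml4, a gene that fell. They made up 55.2% of the Cep57 window, 53.6% of that of Haus6 and 45.2% of that of Spc25. The median over all windows was 52.0%. Within these 5 windows the match of CCAAT does not separate Cep57l1, which rose, from the genes that fell, since all carry it.

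Rttn and Ccdc14, both tied to centrioles, had the lowest and the highest log2(TPM + 1) fold change of the members. With a pseudocount of 0.1 in place of 1, Cep192 (-4.57) came below Rttn (-3.78) and Cep57l1 (5.14) above Ccdc14 (4.39). Rttn encodes rotatin, which centrioles need in human cells to reach full length (chromosome 18, 88971790 to 89131016, plus strand). It was the most abundant member in Ctrl, at 42.1, 29.2, 13.4 and 31.7 TPM. In KO it was at 5.07, 12.7, 0 and 2.14 TPM, so KO library 2 came close to Ctrl library 3 without reaching it. The log2 fold change was -2.80 ± 0.66 (SE, adjusted p by limma = 0.00682), and it was -2.13 without KO library 3, which was listed at 0. Exons of Rttn overlap those of Mir6359 on the same strand, so its values are uncertain to that extent.

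Ccdc14 encodes a centriolar satellite protein that restrains centriole duplication in human cells (chromosome 16, 34690616 to 34725202, plus strand). Ctrl libraries 1, 2 and 3 held 2.83, 1.61 and 3.84 TPM and library 4 held 0.000114 TPM, while the KO libraries held 20.0, 57.6, 10.5 and 31.0 TPM. The lowest KO library was 2.74-fold above the highest Ctrl library. The rise of 3.30 ± 0.60 on the log2 scale (SE, adjusted p by limma = 0.00217) kept its call under each of the 19 alternative settings, which no other member did. KO library 2, the highest for Ccdc14, was the lowest for Haus6.

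Among the microtubule genes, Haus6 and Eml4 both fell, Eml4 at the edge of the test. Haus6 is a subunit of augmin, which recruits the microtubule nucleator to the sides of existing microtubules (chromosome 4, 86578855 to 86612055, minus strand). It was at 9.07, 10.8, 8.0 and 5.85 TPM in Ctrl and at 3.98, 0.00105, 1.36 and 2.37 TPM in KO. Every KO library was below every Ctrl library, and Ctrl spread less for Haus6 (SD 0.33 on the log2 scale) than for any other member but Cep57l1, which was near 0 there. On the log2 scale its change was -1.88 ± 0.54 (SE, adjusted p by limma = 0.0140), or -1.44 without KO library 2. Of the 8 augmin genes on the lists, Haus6 alone had a row.

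Eml4 encodes a protein that binds and stabilizes microtubules and is known as the partner of ALK in a fusion found in human lung cancer (chromosome 17, 83350931 to 83480361, plus strand). Ctrl held 1.91, 5.03, 3.83 and 5.55 TPM and KO held 2.37, 1.15, 1.47 and 0.726 TPM. Ctrl library 1 lay below KO library 1, and the KO libraries were lower in 15 of the 16 Ctrl and KO pairs. At -1.04 ± 0.46 on the log2 scale (SE, adjusted p by limma = 0.0414), Eml4 matched the median of all tested genes. Its call was lost in 6 of the 8 fits that left out a single library, without Ctrl library 2, 3 or 4 or KO library 2, 3 or 4 (adjusted p by limma = 0.0626 to 0.117). A pseudocount of 0.1 (0.0628) and array weights (0.0676) ended it too. The exact two-sided permutation test gave p = 0.0571 for Eml4, as it did for Cep192. For every other member that test gave 0.0286, the value that any 4 against 4 libraries without overlap give.

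Spc25, the kinetochore member, is a subunit of the Ndc80 complex that binds microtubules (chromosome 2, 69193895 to 69206194, minus strand). Its Ctrl levels were 2.38, 3.85, 1.20 and 1.55 TPM, and its KO levels were 1.11, 0, 0.508 and 0 TPM. KO library 1 lay just under Ctrl library 3. The change was -1.21 ± 0.39 on the log2 scale (SE, adjusted p by limma = 0.0178). For so low a gene it depends on the 1 TPM added before taking logs, and it was -2.87 with 0.1 added. Which value is nearer to the true difference was not tested. Without Ctrl library 2 the change of Spc25 with 1 TPM added came to -0.997 (adjusted p by limma = 0.0492). Spc25 reached the filter through Ctrl alone, so these adjusted p-values lend no support to a difference.

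The size of each fold change depended on the value added before taking logs. With a pseudocount of 0.1, log2 fold changes were -4.57 for Cep192, -2.92 for Haus6, -2.87 for Spc25 and 5.14 for Cep57l1. With a pseudocount of 5 they were -1.85 for Rttn, -0.98 for Haus6, -0.95 for Cep192, -0.84 for Cep57, -0.49 for Eml4, -0.41 for Spc25, 1.12 for Cep57l1 and 2.14 for Ccdc14. Directions held under both, and Eml4 was the only member to lose its call, at 0.1.

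Several of these calls changed with the scaling of the libraries. Each listed row was picked for a difference between the groups, so there was no set of unchanged genes to scale or centre on. Scaling from the listed genes can therefore take up part of the group difference. Which scaling is nearest to the true levels was not tested. Median-of-ratios scaling, computed from the listed genes, raised the median log2 fold change of all tested genes from -1.05 to -0.35 and turned the split of calls from 230 lower and 147 higher to 52 lower and 145 higher. Quantile normalization raised the median to -0.69 and gave 94 lower and 146 higher. All 8 members kept their direction under both. Under median-of-ratios scaling Cep192, Cep57l1 and Ccdc14 passed, and the fall of Rttn (adjusted p by limma = 0.0612), Haus6 (0.0665), Spc25 (0.0597), Cep57 (0.104) and Eml4 (0.283) did not. Cep192 and Cep57l1 reached the filter through a single group, so their passing lends no support to a difference. Among the members, quantile normalization ended only the call of Eml4 (adjusted p by limma = 0.109). Set against the median of all tested genes, the log2 fold change of Rttn stayed 1.71 to 1.85 lower over the 3 scalings. That of Cep192 stayed 1.18 to 1.45 lower and that of Haus6 0.82 to 1.03 lower. Cep57 was 0.45 to 0.54 lower and Spc25 0.16 to 0.52 lower, while Eml4 moved from 0.00542 above to 0.12 below. Cep57l1 was 3.13 to 3.58 higher and Ccdc14 4.09 to 4.35 higher. Leaving out Ctrl libraries 2 and 4 together kept all 8 directions, and Ccdc14 alone still passed (adjusted p by limma = 0.0329).

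**Figure D2:**
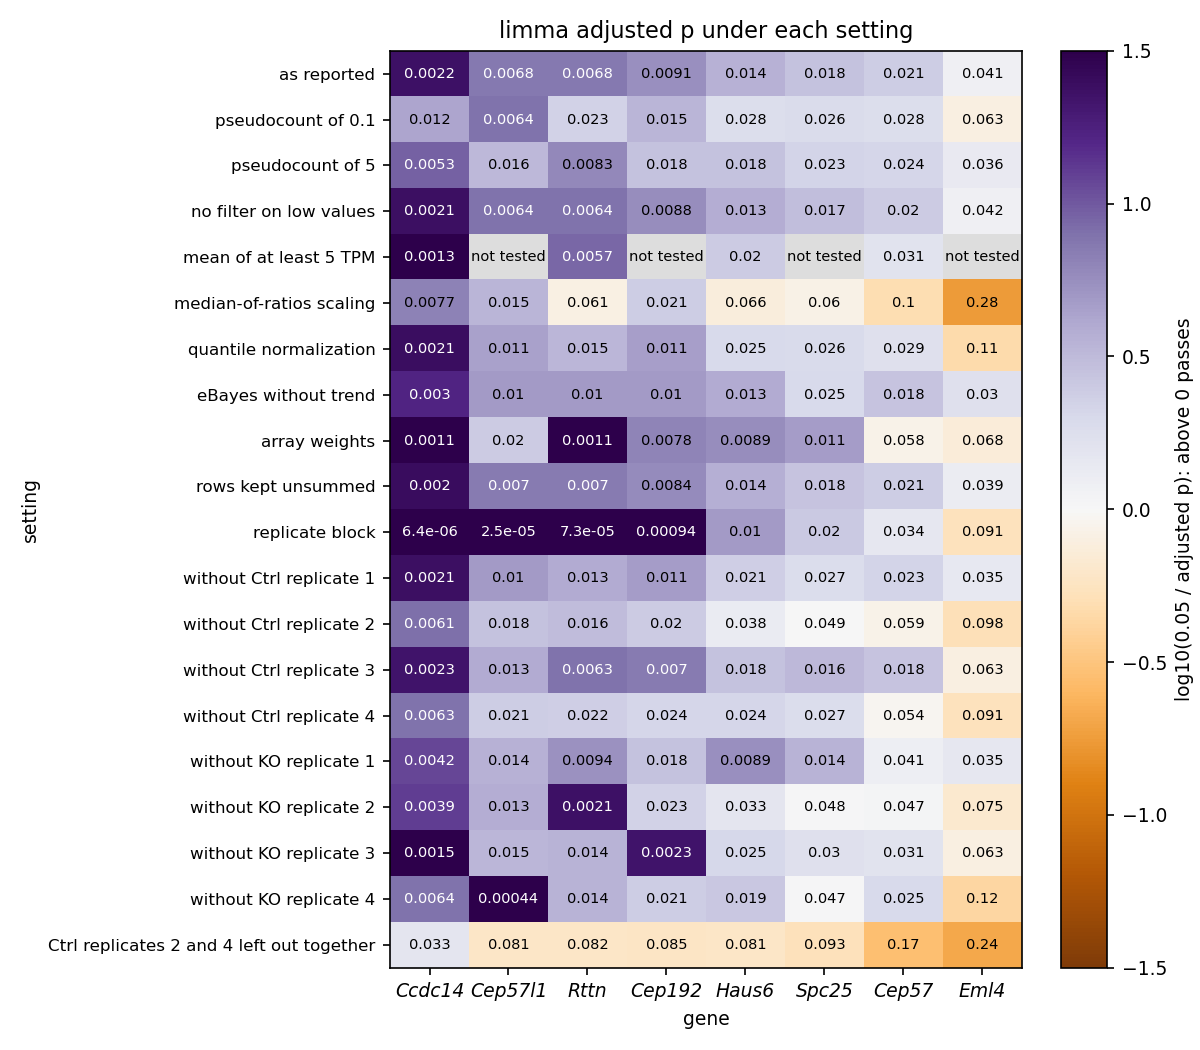
limma adjusted p of each gene (columns) under each setting (rows), printed in the cells; purple cells pass 0.05, orange cells do not, and grey cells were removed by that filter. Ccdc14 passes in every row, while Eml4 has the most orange cells.

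The order of the levels differed between the groups. In Ctrl, Rttn had the highest median (30.4 TPM), above Haus6 (8.53 TPM) with no overlap. Haus6, Cep57 (7.89 TPM), Cep192 (5.78 TPM), Eml4 (4.43 TPM), Ccdc14 (2.22 TPM) and Spc25 (1.96 TPM) followed, each overlapping the next. Cep57l1 came last, below Spc25 with no overlap. In KO, Ccdc14 had the highest median (25.5 TPM), followed by Cep57l1 (7.89 TPM), Rttn (3.60 TPM), Cep57 (1.95 TPM), Haus6 (1.86 TPM), Eml4 (1.31 TPM), Spc25 (0.254 TPM) and Cep192 (2.12e-05 TPM). Every neighbouring pair overlapped there. The SD between libraries on the log2 scale had a median of 0.59 over the members and 0.59 over all tested genes in Ctrl. In KO it was 0.99 over the members and 0.58 over all tested genes. The values below 0.01 TPM in KO were those of Cep192 in libraries 1, 2 and 4, Spc25 in libraries 2 and 4, Haus6 in library 2 and Rttn in library 3. In each KO library, 6.47% to 13.4% of tested genes lay below that level, most in library 2.

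**Figure D3:**
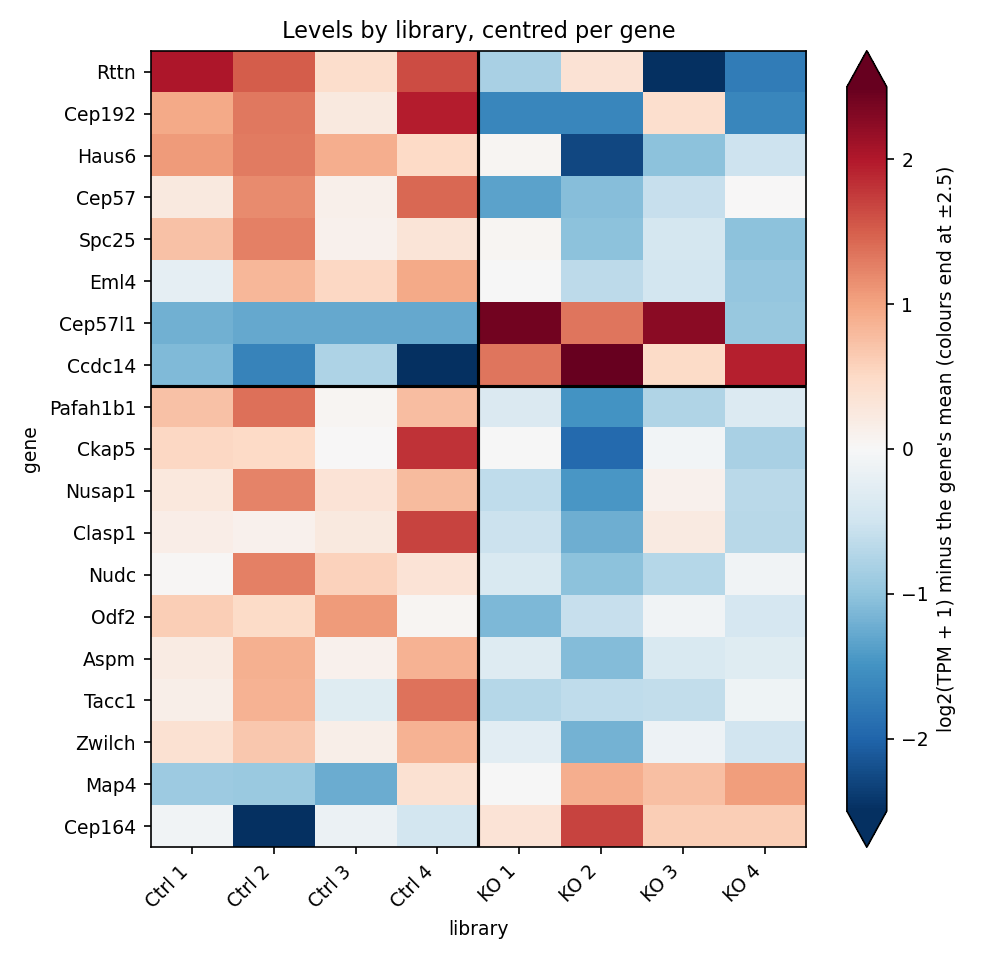
Each cell is log2(TPM + 1) of a gene (row) in a library (column) minus the mean of that gene over the 8 libraries; the 8 members stand above the horizontal line and the 11 other listed spindle genes below it. Members on the other group's side of their own mean by more than 0.1 are Cep192 in KO library 3 (0.43), Rttn in KO library 2 (0.37), Eml4 in Ctrl library 1 (-0.22) and Cep57l1 in KO library 4 (-0.94).

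Of 215 further gene names in lists of centrosome, spindle and kinetochore genes, some of them aliases of the same gene, 11 had a row, each in 1 row. Of these, 7 fell and 2 rose, next to 57.2% lower and 36.6% higher among all tested genes, and Tacc1 and Clasp1 did not pass (adjusted p by limma = 0.0523 and 0.0539, log2 fold changes -1.04 and -1.11). Tacc1 passed without Ctrl library 3 (0.0326) and Clasp1 without KO library 3 (0.0409). Their median log2 fold change was -1.10, close to the -1.05 of all tested genes. The centriole genes went both ways, as the members did. Odf2 is needed for the appendages of the mother centriole. It ranged from 1.27 to 3.57 TPM over the Ctrl libraries and from 0 to 1.05 TPM over the KO libraries. Its log2 fold change was -1.10 ± 0.38 (SE, adjusted p by limma = 0.0214). Odf2 reached a mean of 1 TPM through Ctrl alone (0.544 TPM on average in KO), so its adjusted p-value lends no support to a difference. Cep164, a protein of those appendages, ranged from 4.18 to 28.1 TPM over the Ctrl libraries and from 38.2 to 98.0 TPM over the KO libraries (1.63 ± 0.53 SE, adjusted p by limma = 0.0178). Without Ctrl library 2, where Cep164 was lowest, its log2 fold change was 1.05, and without KO library 2 the call was lost (adjusted p by limma = 0.0505).

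Aspm, a spindle pole protein, was the most abundant of these genes, at 332, 530, 310 and 525 TPM in Ctrl and 230, 135, 221 and 232 TPM in KO. Its groups did not overlap (-1.04 ± 0.34 SE on the log2 scale, adjusted p by limma = 0.0178), but under quantile normalization the fold change was -0.13 (adjusted p = 0.665) and under median-of-ratios scaling -0.23 (0.264). Ckap5, the microtubule polymerase, ranged from 35.6 to 126 TPM over the Ctrl libraries and from 8.48 to 35.3 TPM over the KO libraries (-1.41 ± 0.49 SE, adjusted p by limma = 0.0214). Pafah1b1 (Lis1), a regulator of the motor dynein, ranged from 10.4 to 27.5 TPM over the Ctrl libraries and from 2.90 to 7.72 TPM over the KO libraries (-1.47 ± 0.45 SE, adjusted p by limma = 0.0152). Nudc, which also works with dynein, ranged from 42.5 to 100.4 TPM over the Ctrl libraries and from 19.8 to 39.2 TPM over the KO libraries (-1.10 ± 0.38 SE, adjusted p by limma = 0.0208).

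Nusap1, which bundles spindle microtubules, ranged from 20.5 to 41.5 TPM over the Ctrl libraries and from 5.56 to 18.2 TPM over the KO libraries (-1.33 ± 0.43 SE, adjusted p by limma = 0.0178). Zwilch, of the kinetochore complex that serves the spindle checkpoint, ranged from 20.0 to 33.7 TPM over the Ctrl libraries and from 7.35 to 16.5 TPM over the KO libraries (-1.03 ± 0.39 SE, adjusted p by limma = 0.0266). Map4, a protein along microtubules, rose from a range of 1.41 to 6.48 TPM to 4.68 to 10.8 TPM (1.35 ± 0.50 SE, adjusted p by limma = 0.0262), with Ctrl library 4 above KO library 1. Leaving out Ctrl library 1, 2 or 3 or KO library 2 or 4 ended the call of Map4 (adjusted p by limma = 0.0507 to 0.0631), and leaving out Ctrl library 2 or 4 or KO library 2 or 4 that of Zwilch (0.0547 to 0.0676). Without Ctrl library 2 the calls of Nudc (0.0605), Nusap1 (0.0521) and Aspm (0.0527) were lost. That of Ckap5 was lost without Ctrl library 4 (adjusted p by limma = 0.0640) or KO library 2 (0.0583), and that of Odf2 without KO library 1 (0.0530). Pafah1b1 kept its call in all 8 of these fits. Median-of-ratios scaling ended the calls of all 7 genes that fell, and quantile normalization those of Ckap5, Nudc, Nusap1, Aspm and Zwilch. In 7 of the 9 genes lower in KO, KO library 2 held the lowest KO value, against 47.6% of all tested genes lower in KO. Without that library all 9 were still lower, by -1.21 for Pafah1b1 to -0.81 for Zwilch on the log2 scale, and 5 of the 11 genes passed in place of 9. Nudc shares 99.1% identity over 555 bp with the pseudogene Nudc-ps1, and a transcript of Lctl is identical to Zwilch over 258 bp. Exons of Nusap1, Odf2 and Zwilch overlap exons of genes on the opposite strand, which for Zwilch is Lctl. Exons of Tacc1 and Ckap5 overlap those of Mir8108 and Snord67 on the same strand. Values of all these listed genes are uncertain to that extent.

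**Figure D4:**
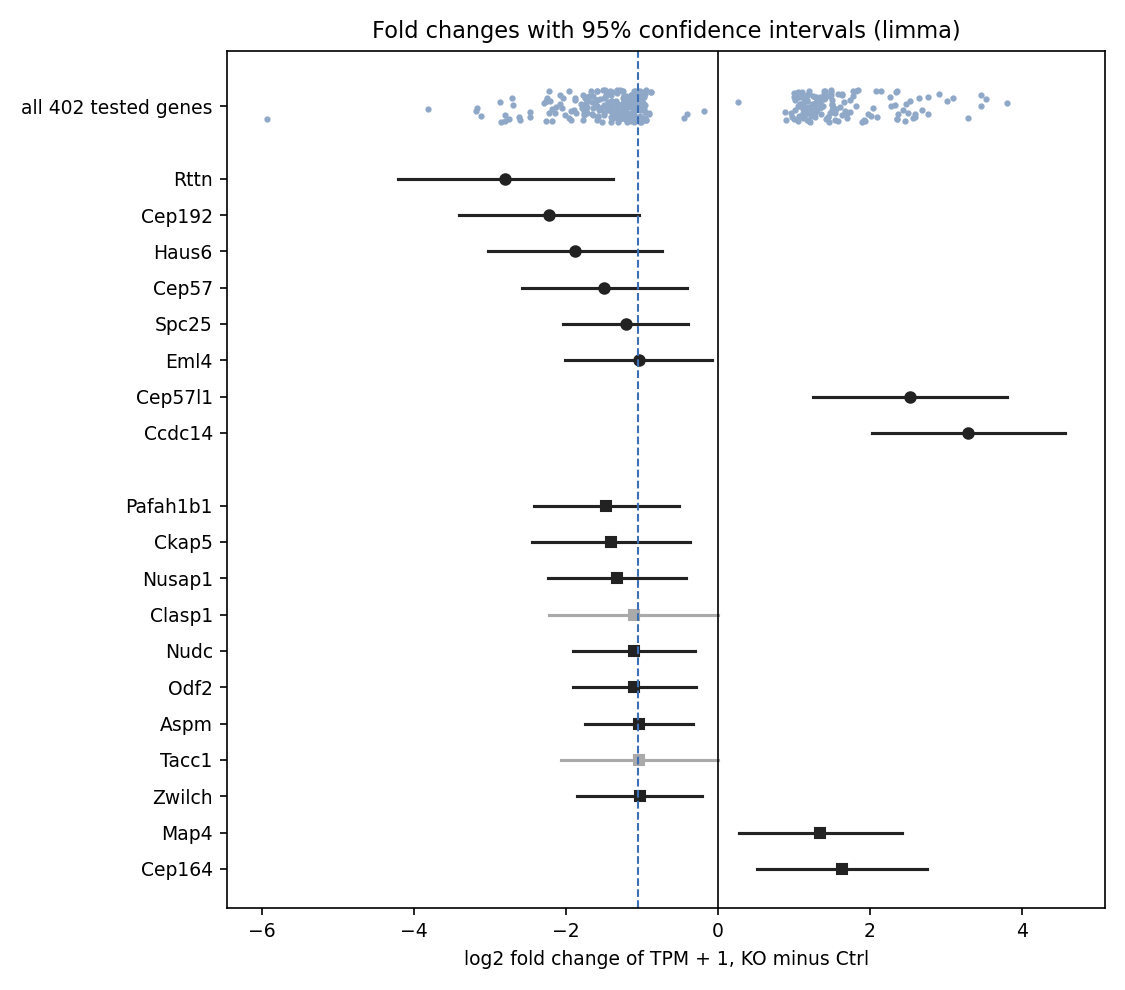
log2 fold change of TPM + 1, KO minus Ctrl, with 95% confidence intervals from limma: circles are the 8 members, squares the 11 other listed genes, black passes an adjusted p of 0.05 and grey does not. The small points are all 402 tested genes, spread vertically for view, and the dashed line is their median of -1.05, where Eml4, Aspm, Tacc1 and Zwilch lie.

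For each member, the other tested gene with the most similar profile was the gene with the smallest root mean square difference in centred log2(TPM + 1) over the 8 libraries. This is a description, since group differences alone make listed genes alike. Eml4 lay 0.21 from Arhgap26, Cep57 lay 0.25 from Abcf1, and Cep192 lay 0.26 from Srsf11. Srsf11 shared the exception of Cep192, with 4.62 TPM in KO library 3 and 0 to 0.559 TPM in the other KO libraries. Spc25 lay 0.29 from Cops2 and Haus6 0.37 from mt-Nd4l. The remaining members had no profile as close. The nearest were Tfap2c for Ccdc14 (0.79), Gm49366 for Rttn (0.83) and Cd1d1 for Cep57l1 (0.90). Cd1d1 was also lowest within KO in library 4, at 0.376 TPM against 2.40 to 2.45 TPM. The median distance to all other tested genes ran from 0.84 for Cep57 to 2.46 for Ccdc14.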

How the data were processed

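Per the labels' protocol, merged oocytes were amplified by Smart-seq2, which copies whole transcripts from small inputs. The table deposited by the authors holds TPM. The submitters' processing notes name GRCm38, sleuth 0.30.1 and kallisto 0.46.2. How rows were chosen and which annotation release was used is not given in the sources used here. Depth is lost in TPM, so no interval from counts was made, and a fall of abundant transcripts raises the others.

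Libraries were grouped by their titles. Rows of a gene name were summed, and 402 of 417 genes reached a mean of 1 TPM and were tested as log2(TPM + 1), 4 KO against 4 Ctrl libraries, with limma 3.58.1 in R 4.3.3 (eBayes with trend, two-sided), Benjamini-Hochberg adjustment over the 402 genes and a threshold of 0.05. Single members were also compared by exact two-sided permutation. Zeros can be failed estimates, so values are given per library. The fit was run on simulated log2 values with normal noise for these 402 genes. That run did not model the choice of rows or the values at 0, so it does not show how p-values behave here. The named genes are the 8 members, the genes of the 3 spindle lists with a row, and the nearest profile of each member. Members and lists were chosen with earlier results of these data known.

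Gene positions and transcripts come from GENCODE M21 (GRCm38), promoter windows from RefSeq (GRCm38.p6). Near-identical copies of the protein-coding transcripts were searched with BLAST+ 2.17.0 (megablast, 95% identity over at least 200 bp). Python 3.11.15 with numpy 2.4.6, scipy 1.17.1, pandas 2.3.3 and matplotlib 3.10.9 served the rest. Alternatives comprised median-of-ratios and quantile scaling from the listed genes, other pseudocounts (0.1, 5), filters at 0 or 5 TPM, eBayes without trend, array weights, unsummed rows, a replicate block, and libraries left out.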

Additional observations from a re-analysis of the deposited data

Results flagged for a closer look

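In 38 groups of 4 libraries (the 8 members and 11 other listed genes, Ctrl and KO apart), a library far from the other 3 was looked for on the log2(TPM + 1) scale. The cut used flags about 1 in 20 groups by chance if values are normally distributed, which values at or near 0 are not. A count of flags is therefore not set against chance here. There were 6 such libraries. For the members they were Cep192 in KO library 3, at 3.15 TPM with the others at 0 or 4.23e-05 TPM, and Cep57l1 in Ctrl library 1, at 0.0545 TPM with the others at 0 to 0.00384 TPM. For the other listed genes they were Cep164 in Ctrl library 2 (low, 4.18 TPM), Tacc1 in KO library 4 (high, 2.53 TPM), Clasp1 in Ctrl library 4 (high, 13.0 TPM) and Aspm in KO library 2 (low, 135 TPM). Without Ctrl library 4 the log2 fold change of Clasp1 went from -1.11 to -0.73 (adjusted p by limma = 0.169).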

How the results depend on the processing

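Over 148 combinations of a member and an alternative setting, no direction turned, 123 stayed on their side of the threshold and 25 calls were lost. Over 206 combinations for the 11 other listed genes, no direction turned, 40 calls were lost and 6 gained. With a mean of at least 5 TPM, 213 of 230 genes and all 4 members left were called, where fewer genes were tested. Median-of-ratios scaling called 197 genes, 3 members and 2 other listed genes, and quantile normalization 240 genes and 4 other listed genes. With Ctrl libraries 2 and 4 left out together, limma called 54 genes, 1 member and 0 other listed genes (5 of the 11 at an unadjusted p under 0.05), with fewer samples. Leaving out a single library gave 188 to 358 genes, 6 to 8 members and 4 to 10 other listed genes. The lowest counts over all genes were 188 without Ctrl library 2, 215 without KO library 2 and 244 without Ctrl library 4. For the other listed genes they were 4 without Ctrl library 2 and 5 without KO library 2. With the replicate number as a block, 279 genes, 7 members and 6 other listed genes were called, and Eml4 (adjusted p by limma = 0.0911), Nudc (0.0502), Map4 (0.0502) and Zwilch (0.0834) lost their calls. The labels do not say what a number shares, and same-numbered libraries did not deviate together (correlations over 402 genes of -0.26, -0.20, -0.17 and 0.07). Where no reason is given above, the cause was not tested. Depth is unknown and limits most the members listed at or near 0.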
